A study of Mus musculus with 5 samples.

Results

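RNA-seq of mouse neural stem cells (NSCs) and STO fibroblasts was examined for 10 genes of the Hippo pathway's output: the coactivator genes Yap1 and Wwtr1 (which encodes TAZ), the DNA-binding partner genes Tead1, Tead2, Tead3 and Tead4, and Ankrd1, Amotl2, Ajuba and Lats2, which are known as targets or regulators of YAP and TAZ. The genes were chosen by name as a pathway, with earlier results of these data known, and were 10 of the 25414 genes named in the data. All 10 had a mean of at least 1 FPKM (fragments per kilobase of transcript, scaled to the number of mapped fragments) in NSCs or in STO cells, and so entered the test together with 12292 genes in all. The NSC group held 2 samples of primary neural stem cells from mouse embryonic cortex at passages 5 to 8, grown on poly-l-ornithine and laminin in neural medium with EGF, bFGF, heparin and B27. The STO group held 3 samples of STO cells, 1 continuous fibroblast line from SIM mouse embryos that serves as a feeder for germline stem cells, at passages above 30 and grown in high-glucose DMEM with fetal bovine serum. C57BL/6 is given as the strain of both, which for STO cells conflicts with their description as a line from SIM mouse embryos. A shared genetic background therefore cannot be taken from the labels. Neither group carried a treatment. Medium, serum, substrate and passage differed with the cell type and cannot be told apart from it. Nothing states that the replicates were separate cultures, so p-values measure only the spread between these samples, which may be technical.

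The markers of each cell type were found in its own samples. The summed level of 4 NSC markers (Nes, Sox2, Pax6 and Olig2) was 943 to 989 FPKM in NSCs and 0.038 to 0.0724 FPKM in STO cells, where Sox2, Pax6 and Olig2 were listed at 0. The sum of 6 fibroblast markers (Col1a1, Col1a2, Col3a1, Pdgfrb, Thy1 and Twist1) was 1032 to 1110 FPKM in STO cells and 1.10 to 1.62 FPKM in NSCs. The NSC samples also held 16.3 to 17.8 FPKM over 4 neuronal markers and 17.5 to 18.8 FPKM over 2 astrocyte markers, mostly Gfap, against 7.84 to 8.57 FPKM and at most 0.0163 FPKM in STO cells, where Tubb3 was the 1 neuronal marker above 1 FPKM. Markers of endothelium and microglia summed to less than 1 FPKM in every sample. Tubb3 was at 8.69 FPKM in NSCs and 8.30 FPKM in STO cells, and the study used Gfap as a negative control for its NSCs in RT-PCR. In bulk RNA, fewer cells of a type and less RNA per cell cannot be told apart. Whether these markers came from neurons and glia or from the stem cells themselves was not tested. The part of any such cells in the results below was not tested either.

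The Hippo pathway is a kinase cascade in which MST kinases activate LATS kinases, which phosphorylate YAP and TAZ and hold them out of the nucleus. Unphosphorylated YAP and TAZ enter the nucleus and bind TEAD factors on DNA, and the genes they switch on include regulators of the pathway itself, such as Lats2 and Amotl2. The pathway is known for its response to cell contact, cell shape and serum, and in the developing brain YAP is found in neural progenitors. mRNA levels carry no measure of phosphorylation or of where the proteins are in the cell.

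The promoters of the coactivator genes and of 3 of the target genes are shown because all of them hold the 6 letters of the core TEAD binding motif, GGAATG or on the other strand CATTCC, and that of Tead2 is shown because it does not. Each sequence is the 250 bases before the annotated start, from RefSeq in GRCm38.p6, 5′ to 3′ on the gene's strand, with the motif in capitals.
Yap1 (chr9:8004597-8004846, minus strand): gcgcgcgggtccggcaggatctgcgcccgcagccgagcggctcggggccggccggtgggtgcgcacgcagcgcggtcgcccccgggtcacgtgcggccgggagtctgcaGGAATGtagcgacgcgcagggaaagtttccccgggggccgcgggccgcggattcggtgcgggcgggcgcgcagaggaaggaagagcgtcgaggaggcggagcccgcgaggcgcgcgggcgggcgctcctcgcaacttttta
Wwtr1 (chr3:57575911-57576160, minus strand): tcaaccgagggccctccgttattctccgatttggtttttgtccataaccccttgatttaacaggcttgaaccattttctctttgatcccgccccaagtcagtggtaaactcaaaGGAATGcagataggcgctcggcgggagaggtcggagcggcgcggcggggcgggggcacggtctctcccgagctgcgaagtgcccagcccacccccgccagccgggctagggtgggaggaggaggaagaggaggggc
Ankrd1 (chr19:36119845-36120094, minus strand): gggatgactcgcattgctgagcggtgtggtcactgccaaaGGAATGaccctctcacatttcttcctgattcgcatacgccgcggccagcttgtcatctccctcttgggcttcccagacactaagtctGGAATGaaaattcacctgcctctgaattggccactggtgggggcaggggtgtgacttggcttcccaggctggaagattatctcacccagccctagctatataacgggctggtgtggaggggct
Amotl2 (chr9:102717554-102717803, plus strand): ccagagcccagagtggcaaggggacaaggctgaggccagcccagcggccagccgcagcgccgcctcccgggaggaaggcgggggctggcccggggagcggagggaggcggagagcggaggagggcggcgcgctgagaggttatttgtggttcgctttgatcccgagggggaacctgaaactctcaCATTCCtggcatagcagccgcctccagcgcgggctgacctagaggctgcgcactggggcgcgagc
Ajuba (chr14:54577662-54577911, minus strand): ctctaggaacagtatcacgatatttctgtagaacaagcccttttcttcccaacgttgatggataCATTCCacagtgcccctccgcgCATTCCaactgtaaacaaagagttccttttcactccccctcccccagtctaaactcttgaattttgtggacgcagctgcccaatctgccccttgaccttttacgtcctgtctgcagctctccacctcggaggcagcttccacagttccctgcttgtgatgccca
Tead2 (chr7:45215542-45215791, plus strand): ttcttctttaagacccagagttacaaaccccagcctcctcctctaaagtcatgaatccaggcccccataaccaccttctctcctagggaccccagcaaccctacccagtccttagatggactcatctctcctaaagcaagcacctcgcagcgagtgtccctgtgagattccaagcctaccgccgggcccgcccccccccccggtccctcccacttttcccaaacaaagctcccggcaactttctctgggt

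In Ankrd1 the motif began 210 and 123 bases before the start, in Ajuba 186 and 164 bases, in Yap1 141 bases, in Wwtr1 136 bases and in Amotl2 65 bases. The Wwtr1 start shown is the further upstream of 2, as is that of its transcript NM_001168281, which was listed at 0 in every sample. From the other start the same motif began 170 bases before. Promoter windows of 300 bases (250 before and 50 after the start) were held for 8 of the 10 genes, in 12 windows, and 9 of these windows in 7 genes held the motif on either strand, with the 2 overlapping windows of Wwtr1 sharing 1 site and the match in Lats2 lying after the start. Among all 32851 promoter windows 14.7% held it, among those of the genes tested 12.0%, among those of genes higher in STO cells 12.2% and among those of genes lower in STO cells 12.0%. Of 13 windows of other known YAP/TAZ targets, 4 held it. The letters include GGAA, the core of the ETS factors' motif, and a match is a description of the letters, not evidence of a bound site.

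All 10 genes were higher in STO cells than in NSCs, and for none of them did the values of the 2 cell types overlap, which also held for 43.9% of all genes tested in that direction and for 46.0% in the other. Values were tested with limma on log2(FPKM + 1) with Benjamini-Hochberg adjustment over all 12292 genes at a threshold of 0.05, by which 41.9% of all genes tested were called higher in STO cells, 43.7% lower and 85.6% in either direction. With so many genes called, a call alone says little about a gene, and the sizes of the differences are given for each. The median difference (STO minus NSC) was 2.75 on the log2(FPKM + 1) scale over the 10 genes, against -0.02 over all genes tested, whose 5th and 95th percentiles were -3.10 and 2.42. Ankrd1 and Tead4 entered the test only through their STO level, which fixed their direction, and over the other 8 genes the median was 2.202. A difference of at least 1 was called for 8 of the 10 genes (6 of 8 without Ankrd1 and Tead4), Wwtr1 and Tead1 being the exceptions, against 17.1% of all genes tested in that direction and 21.3% in the other. Adding 1 before the logarithm shrinks the differences of genes at low levels, and folds below are ratios of mean FPKM.

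**Figure D1:**
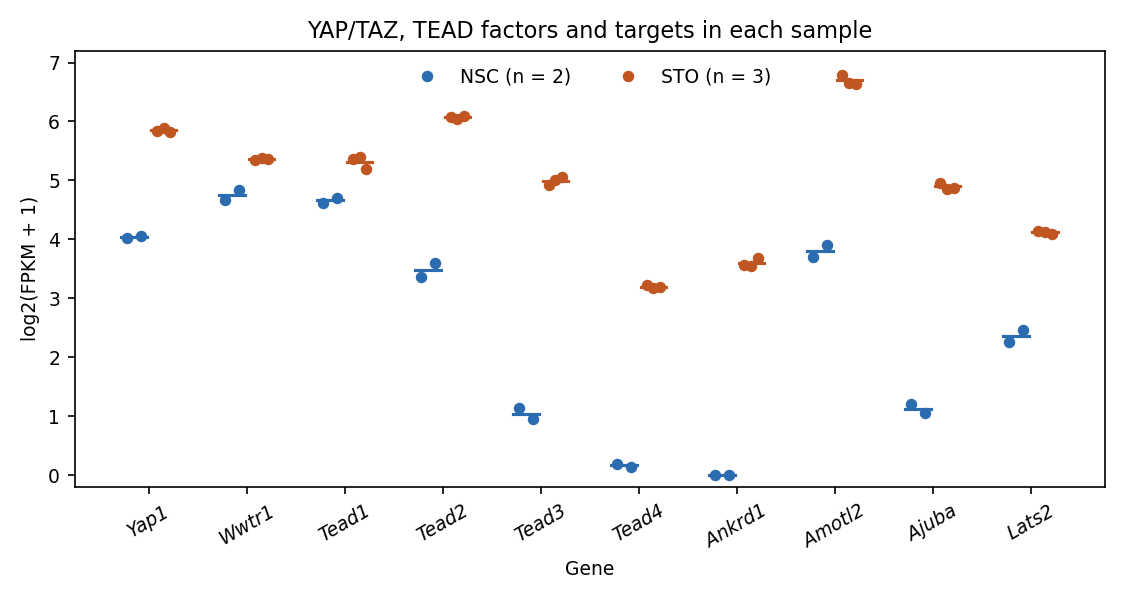
Level of each gene, as log2(FPKM + 1) on the vertical axis, in each of the 2 NSC samples (blue points) and 3 STO samples (orange points), with a bar at the group mean. The STO points lie above the NSC points for all 10 genes, closest for Wwtr1 and Tead1 and farthest apart for Tead3 and Ajuba.

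Of the coactivators, Yap1 had the larger ratio between the cell types and Wwtr1 the smaller. Yap1 measured 15.2 and 15.7 FPKM in the NSC samples and 56.5, 58.2 and 55.4 FPKM in the STO samples. The samples of each type lay close together, and STO cells had 3.67 times the NSC level (15.4 ± 0.337 against 56.7 ± 1.38 FPKM, SD, n = 2 and 3). The difference was 1.81 ± 0.05 (SE) on the log2 scale (limma, adjusted p = 2.19e-07), and 7.92% of the genes tested had a larger one toward STO cells. Percents of this kind leave out genes that differed by more in the other direction. Wwtr1 measured 24.5 and 27.8 FPKM in the NSC samples and 39.6, 40.5 and 40.0 FPKM in the STO samples. All STO values were above both NSC values, by 1.53 times in the means, and the difference was 0.60 ± 0.06 (limma, adjusted p = 0.000168). A larger difference toward STO cells was found for 27.2% of the genes tested, again without those that differed by more in the other direction.

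Summed over its transcripts, Wwtr1 was the more abundant coactivator gene in NSCs and Yap1 in STO cells. Yap1 made up 38.3% and 36.1% of the summed FPKM of the pair in the NSC samples, and 58.8%, 58.9% and 58.1% in the STO samples. The shares did not overlap, and their means differed by 21.4 percentage points (37.2 ± 1.53% against 58.6 ± 0.457%, SD). The exact two-sided permutation test gave p = 0.2, the smallest value that 2 against 3 samples allow, so no share in the text could reach 0.05. The pair together was at 41.6 ± 2.62 FPKM in NSCs and 96.7 ± 1.72 FPKM in STO cells, a ratio of 2.33. The order in STO cells depended on this sum. The single expressed transcript of Wwtr1, NM_133784, was at 39.6, 40.5 and 40.0 FPKM there, above the leading transcript of Yap1, NM_009534, at 34.9, 37.0 and 35.4 FPKM. With these transcripts alone Yap1 made up 27.7% and 30.5% of the pair in NSCs and 46.8%, 47.8% and 47.0% in STO cells, so its share was still higher in STO cells but Wwtr1 led in both. Of the 2 RefSeq transcripts of Yap1, NM_009534 held 61.8% and 77.7% of the gene's FPKM in NSCs and 61.8%, 63.7% and 63.9% in STO cells, a difference smaller than the spread between the NSC samples (exact permutation p = 0.6). Yap1 (chr9:7932001-8004596, minus strand, mm9) overlaps the antisense gene RP23-349N15.1 and Wwtr1 (chr3:57259566-57379832, minus strand) the pseudogene Gm16016 on the other strand, as Tead1 does the noncoding gene 2310014F06Rik. The libraries were stranded, but whether the quantification used strand is not given in the sources used here.

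The 4 TEAD factors, which bind the same DNA motif, differed widely in how far they were apart between the cell types. Tead1 (chr7:119822834-120050319, plus strand, mm9) measured 23.7 and 24.9 FPKM in the NSC samples and 40.3, 41.2 and 35.5 FPKM in the STO samples. Its STO values were all higher, with the widest spread among the STO values of the TEAD genes, and the ratio of the means was 1.61. The difference was 0.66 ± 0.08 on the log2 scale (limma, adjusted p = 0.000244), and 25.5% of the genes tested had a larger one toward STO cells. Tead2 (chr7:52471123-52488989, plus strand) measured 9.26 and 11.1 FPKM in NSCs and 66.1, 65.0 and 67.7 FPKM in STO cells. The STO samples were all near the same level, 6.51 times that of NSCs, with a difference of 2.59 ± 0.08 (limma, adjusted p = 3.37e-07).

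Tead3 and Tead4 were close to the lower end of the measured range in NSCs. Tead3 (chr17:28468618-28487750, minus strand) measured 1.20 and 0.933 FPKM in NSCs and 29.3, 31.2 and 32.2 FPKM in STO cells. This was a ratio of 28.9 in the means and a difference of 3.95 ± 0.08 (limma, adjusted p = 4.71e-08). In that direction 1.77% of the genes tested exceeded it. Tead4 (chr6:128177161-128250831, minus strand) measured 0.145 and 0.104 FPKM in NSCs and 8.33, 7.99 and 8.17 FPKM in STO cells. Both NSC values were imprecise, with deposited bounds of 0.0635 to 0.226 FPKM and 0.0384 to 0.169 FPKM. The STO mean was 65.7 times the NSC mean, and the difference was 3.03 ± 0.05 (limma, adjusted p = 2.33e-08). With a pseudocount of 0.1 in place of 1 it was 5.21. In STO cells Tead4 was the lowest of the 10 genes.

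The summed TEAD level was 34.3 and 37.1 FPKM in NSCs and 144.1, 145.3 and 143.6 FPKM in STO cells, a ratio of 4.05, while the make-up of that sum differed between the cell types. Tead1 made up 69.0% and 67.3% of it in the NSC samples and 27.99%, 28.3% and 24.8% in the STO samples. Tead2 made up 27.0% and 29.9% in NSCs and 45.9%, 44.7% and 47.1% in STO cells, where it was the most abundant TEAD. The share of Tead3 was 3.02 ± 0.706% in NSCs and 21.4 ± 1.04% in STO cells, and that of Tead4 was 0.351 ± 0.101% and 5.66 ± 0.146% (SD, n = 2 and 3). None of the 4 shares overlapped between the cell types, with p = 0.2 for each by the exact two-sided permutation test.

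**Figure D2:**
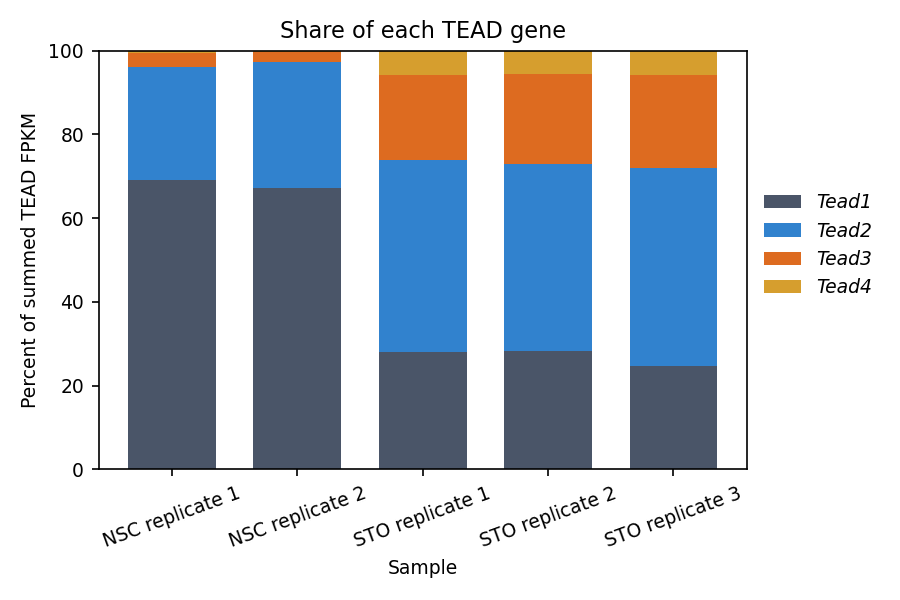
Share of Tead1, Tead2, Tead3 and Tead4 in their summed FPKM, in percent on the vertical axis, with 1 stacked bar for each NSC and STO sample. Tead1 fills more than 67% of each NSC bar, and Tead2 is the largest segment of each STO bar.

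In NSCs the order of Tead1 and Tead2 depended on which transcripts of Tead1 were counted, while in STO cells Tead2 led either way. In 1 alternative, only the transcript with the highest mean FPKM over all samples was kept for each gene. The difference in the share of Tead1 (STO minus NSC) was then 5.71 percentage points instead of -41.1, and that of Tead2 was -24.9 instead of 17.4. The difference of Tead1 itself became 3.43 on the log2 scale. The kept transcript of Tead1, NM_001166584, was at 0 and 4.47 FPKM in NSCs and at 26.6, 25.2 and 21.4 FPKM in STO cells. The other transcripts carried the NSC signal, NM_009346 with 12.4 and 7.14 FPKM and NM_001166585 with 11.2 and 13.3 FPKM. In each NSC sample the higher of these was above Tead2, which was at 9.26 and 11.1 FPKM. The split among the 3 transcripts varied between replicates of 1 cell type, since NM_001166585 was at 0, 7.18 and 5.36 FPKM in the STO samples, while the gene's sum was 35.5 to 41.2 FPKM in these samples. In Tead4, NM_011567 was the 1 transcript above 0 in NSCs, and in STO cells it held 74.8%, 65.7% and 64.2% of the gene's FPKM, the rest being NM_001080979. Tead2 and Tead3 each had 1 transcript above 0.

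Ankrd1, which encodes an ankyrin repeat protein of muscle and stressed cells and is a widely used readout of YAP and TAZ, was listed at 0 in both NSC samples. It measured 10.8, 10.7 and 11.8 FPKM in the STO samples. No ratio is given against listed zeros, and the difference of 3.60 ± 0.06 on the log2 scale (limma, adjusted p = 2.34e-08) rests on the pseudocount, being 6.81 with a pseudocount of 0.1. Ankrd1 (chr19:36186455-36194334, minus strand, mm9) has 1 RefSeq transcript in the data.

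Amotl2 was the most abundant of the 10 genes in STO cells. It encodes an angiomotin family protein of cell junctions that binds YAP and promotes its phosphorylation. Its level was 12.0 and 14.0 FPKM in the NSC samples and 109.7, 99.9 and 99.0 FPKM in the STO samples. The STO mean of 102.9 ± 5.95 FPKM was 7.94 times the NSC mean of 12.96 ± 1.41 FPKM, and it was above the level of 95.01% of the genes tested, against 54.8% in NSCs. Amotl2 lies at chr9:102620134-102635747 (plus strand, mm9). The difference was 2.90 ± 0.08 (limma, adjusted p = 2.54e-07). Its paralogs had smaller differences. Amot was at 6.44 ± 0.389 FPKM in NSCs and 18.6 ± 0.604 FPKM in STO cells (1.40 ± 0.06, limma, adjusted p = 1.75e-06). Amotl1 was at 27.4 ± 0.0864 and 31.3 ± 2.09 FPKM (0.18 ± 0.07, limma, adjusted p = 0.0393), a call lost under 6 of 14 alternative settings. Amotl2 made up 26.3% and 29.0% of the summed FPKM of these 3 genes in NSCs and 69.2%, 65.4% and 67.3% in STO cells, so the leading angiomotin transcript was Amotl1 in NSCs and Amotl2 in STO cells.

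Ajuba (chr14:55186306-55196498, minus strand, mm9), a LIM domain protein that binds LATS kinases at junctions and restrains them, measured 1.30 and 1.08 FPKM in the NSC samples and 30.2, 28.03 and 28.4 FPKM in the STO samples. The STO values were 24.3 times the NSC values in the means, with a difference of 3.77 ± 0.07 (limma, adjusted p = 3.25e-08). In that direction 2.01% of the genes tested exceeded it. The related genes Limd1 and Wtip were present in both cell types. Limd1 was at 17.4 ± 1.59 FPKM in NSCs and 23.3 ± 0.728 FPKM in STO cells (0.40 ± 0.07, limma, adjusted p = 0.00173), and Wtip at 8.88 ± 0.293 and 27.6 ± 2.26 FPKM (1.53 ± 0.08, limma, adjusted p = 3.63e-06). Ajuba thus was 4.94% and 3.75% of the summed FPKM of the 3 genes in NSCs and 35.9%, 36.0% and 36.7% in STO cells.

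Lats2, a LATS kinase and itself a target of YAP, measured 3.78 and 4.53 FPKM in the NSC samples and 16.7, 16.4 and 16.1 FPKM in the STO samples. The ratio of the means was 3.94 and the difference 1.76 ± 0.07 (limma, adjusted p = 1.69e-06). Its paralog Lats1 was not called, with 10.9 and 12.2 FPKM in NSCs and 11.4, 12.0 and 10.9 FPKM in STO cells (-0.01 ± 0.07, limma, adjusted p = 0.85). Lats2 therefore made up 25.7% and 27.1% of the summed LATS FPKM in NSCs and 59.5%, 57.8% and 59.6% in STO cells, and the summed level was 15.7 ± 1.41 FPKM in NSCs and 27.8 ± 0.728 FPKM in STO cells. Lats2 (chr14:58308499-58364960, minus strand, mm9) holds SNORA65 and the pseudogene RP24-92H14.2 on the other strand. The comparisons of Lats2, Amotl2 and Ajuba with their paralogs as shares were chosen after the values had been seen, and each gave p = 0.2 by the exact two-sided permutation test.

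**Figure D3:**
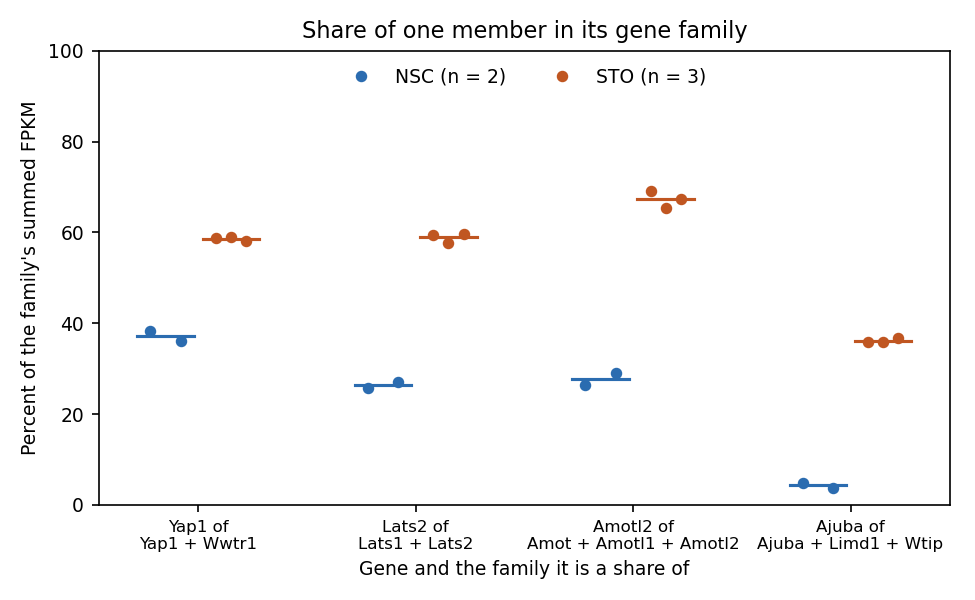
Share of Yap1, Lats2, Amotl2 and Ajuba in the summed FPKM of the named families, in percent on the vertical axis, with 1 point for each NSC sample (blue) and STO sample (orange) and a bar at the group mean. Every STO point lies above every NSC point of the same family, by 21.4 percentage points in the means for Yap1, 32.5 for Lats2, 39.7 for Amotl2 and 31.9 for Ajuba.

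Ordered by level within a cell type, Wwtr1 and Tead1 led in NSCs, with overlapping values, although Wwtr1 was the higher in each sample. Wwtr1 and Tead1 were followed by Yap1, Amotl2, Tead2 and Lats2. Next were Ajuba and Tead3, whose values overlapped although Ajuba was the higher in each sample, and then Tead4 and Ankrd1. In STO cells the order was Amotl2, Tead2 and Yap1, then Wwtr1 and Tead1 with overlapping values, then Tead3 and Ajuba with overlapping values, and last Lats2, Ankrd1 and Tead4. The neighbours not said to overlap had separate values in all samples of the cell type. FPKM is divided by transcript length, which is what allows levels of different genes to be set side by side.

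Of the other kinases and adaptors of the core cassette (Stk3, Stk4, Sav1, Mob1a, Mob1b and Lats1), 5 of 6 were higher in STO cells, none was lower and Lats1 was not called, with a median difference of 1.15. Among all genes tested, 41.9% were higher and 43.7% lower. Sav1, the scaffold of the MST kinases, was at 13.2 ± 1.06 FPKM in NSCs and 41.4 ± 0.414 FPKM in STO cells (1.58 ± 0.06, limma, adjusted p = 1.08e-06). The LATS activators Mob1a and Mob1b were 2.81 and 3.16 times higher in STO cells, whereas the ratio of the MST kinase genes themselves was 1.88 for Stk3 and 1.18 for Stk4. Stk3 and Stk4 were named after their values were seen, as were Taok3, Tjp1, Vgll1 and Vgll2 below.

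Of 13 upstream regulators tested, 6 were higher in STO cells, 5 were lower and 2 (Nf2 and Taok3) were not called, with a median difference of 0.10. These shares are near those over all genes tested, 41.9% higher and 43.7% lower. Dchs1 entered the test only through its NSC level, and Rassf5, named after its values were seen, only through its STO level, which fixed their directions. Among the 6, the call of the kinase gene Taok1, named after its values were seen, was marginal (limma, adjusted p = 0.0475) and was lost in 9 of 14 refits (adjusted p = 0.0529 to 0.263). Frmd6, a FERM domain protein that acts upstream of the kinases, was at 2.42 ± 0.162 FPKM in NSCs and 43.9 ± 1.02 FPKM in STO cells, and Rassf1, which binds MST kinases, at 9.10 ± 1.55 and 61.3 ± 2.63 FPKM. The protocadherins Dchs1 and Fat4, which bind each other between neighbouring cells, went in opposite directions. Dchs1 was at 11.5 and 11.6 FPKM in NSCs and 0.196, 0.218 and 0.186 FPKM in STO cells (-3.39 ± 0.05, limma, adjusted p = 1.15e-08, and -5.28 with a pseudocount of 0.1). Fat4 was at 2.60 and 2.67 FPKM in NSCs and 15.2, 16.8 and 13.3 FPKM in STO cells (2.14 ± 0.10, limma, adjusted p = 2.15e-06). Wwc1 (KIBRA) and its paralog Wwc2, named after their values were seen, also went opposite ways, from 46.3 ± 3.80 to 12.3 ± 0.357 FPKM and from 7.57 ± 0.173 to 23.7 ± 0.249 FPKM. Nf2, which encodes merlin, was at 31.6 ± 0.375 FPKM in NSCs and 31.7 ± 1.95 FPKM in STO cells (0.01 ± 0.06, limma, adjusted p = 0.93).

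Among 7 other junction proteins that bind LATS or YAP, 6 were higher in STO cells and 1 (Tjp1) was lower, with a median difference of 1.15. The shares over all genes tested were 41.9% higher and 43.7% lower. With a difference of at least 1 also required, 4 were higher, against 17.1% of all genes tested. Ptpn14, a phosphatase that binds YAP and is also listed as a target, was at 4.67 ± 0.247 FPKM in NSCs and 22.2 ± 0.70 FPKM in STO cells (2.03 ± 0.06, limma, adjusted p = 2.4e-07).

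The VGLL proteins share the TEAD factors with YAP and TAZ. Of these 4 genes, 2 were tested, Vgll3 only through its STO level, which fixed its direction. Vgll3 was 0.105 and 0.0958 FPKM in the NSC samples and 25.3, 26.3 and 24.3 FPKM in the STO samples (4.58 ± 0.06, limma, adjusted p = 8.29e-09, and 6.99 with a pseudocount of 0.1). Vgll4, which competes with YAP for TEAD factors, was lower in STO cells, at 24.6 ± 0.188 FPKM against 38.2 ± 5.92 FPKM in NSCs (-0.60 ± 0.09, limma, adjusted p = 0.001). Vgll2 was at 0.675 and 0.581 FPKM in NSCs and listed at 0 in STO cells, and Vgll1 was listed at 0 in every sample.

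Of 19 other genes known as targets of YAP, TAZ and TEAD factors, 14 were higher and 5 lower in STO cells, with a median difference of 2.03. Over all genes tested, 41.9% were higher and 43.7% lower. Of the 17 targets listed above 0 in both cell types, 13 were higher and 4 lower. Among these 17, Ccn2, Myof and Dock5 entered the test only through their STO level and Nt5e only through its NSC level, which fixed their directions. The same holds for the targets listed at 0 in 1 cell type, Foxf2 through its STO level and Igfbp3 through its NSC level. The counts and medians of the targets include these genes of fixed direction. Dock5 and Foxf2 were named after their values were seen. Ccn1 (Cyr61) and Ccn2 (Ctgf), matricellular proteins and the targets most often used to read the pathway, were both higher. Ccn1 measured 5.94 and 5.42 FPKM in NSCs and 226.8, 214.4 and 227.6 FPKM in STO cells, 39.2 times higher in the means (5.07 ± 0.06, limma, adjusted p = 7.84e-09). Ccn2 measured 0.821 and 0.701 FPKM in NSCs and 22.7, 21.5 and 22.1 FPKM in STO cells, 29.1 times higher (3.72 ± 0.06, limma, adjusted p = 1.84e-08). The largest rises among the 19 were those of Myof, a membrane repair protein, from 0.385 ± 0.0712 to 108.8 ± 5.41 FPKM, and Axl, a receptor tyrosine kinase, from 1.59 ± 0.409 to 176.4 ± 1.67 FPKM.

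The 5 targets that were lower in STO cells included Igfbp3, a binding protein of insulin-like growth factors. Igfbp3 measured 285.5 and 275.8 FPKM in NSCs and was listed at 0 in all 3 STO samples (limma, adjusted p = 3.47e-09). With listed zeros no ratio is given, and its direction was fixed by entry through its NSC level alone. Tissue factor, F3, was at 26.1 ± 0.391 FPKM in NSCs and 19.3 ± 1.55 FPKM in STO cells (-0.42 ± 0.07, limma, adjusted p = 0.00191). The other 3, named after their values were seen, were Fjx1 (59.2 ± 3.05 against 5.11 ± 0.435 FPKM), Nt5e (7.89 ± 0.253 against 0.047 ± 0.026 FPKM) and Tgfb2 (11.5 ± 0.398 against 6.40 ± 0.543 FPKM). Several of these targets, such as those encoding matrix and adhesion proteins, are also known as genes of fibroblasts, and the part of cell type apart from the pathway was not tested.

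**Figure D4:**
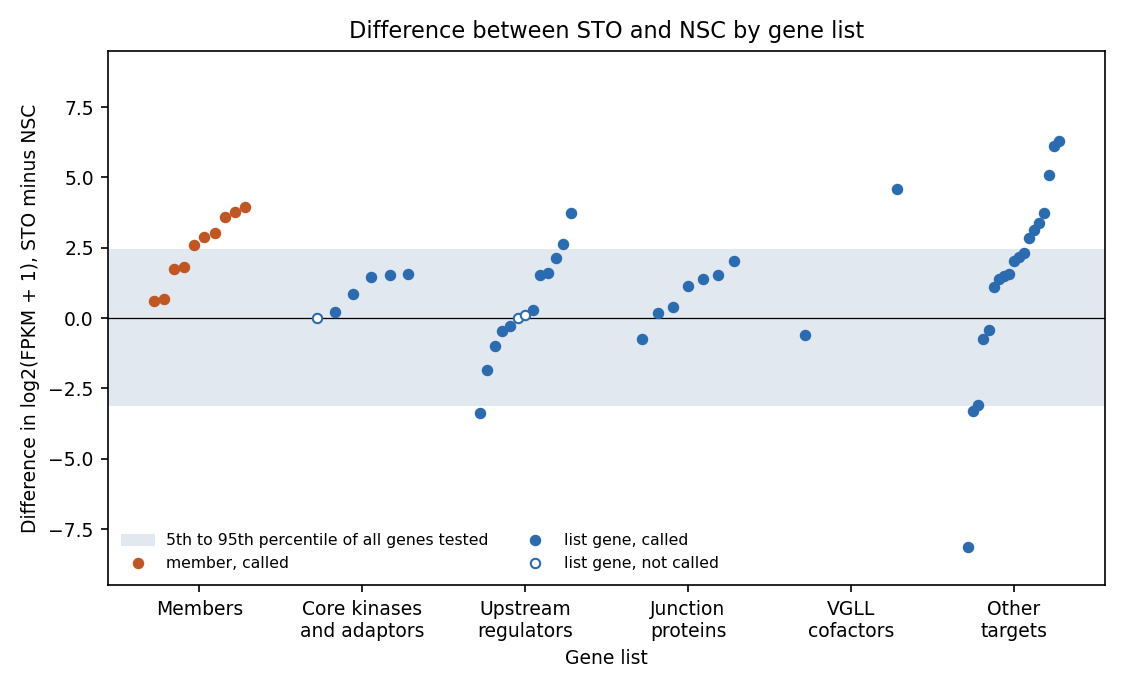
Difference between STO cells and NSCs in log2(FPKM + 1) on the vertical axis (above 0 is higher in STO cells) for each gene of the lists on the horizontal axis, with open circles for genes not called by limma and a band from the 5th to the 95th percentile of all genes tested (-3.10 to 2.42). The 10 genes chosen here (orange) lie above 0, as do 31 of the 46 tested genes of the other lists that were called higher, while the upstream regulators spread from -3.39 to 3.72 and the targets from -8.14 to 6.31. Of all genes tested, 41.9% were called higher.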

How the data were processed

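RNA-seq was examined for 5 samples, assigned to NSC (replicates 1 and 2) or STO (replicates 1 to 3) from their titles. The study prepared stranded libraries of mRNA, sequenced both ends of each fragment, mapped the trimmed reads to the mm9 genome (HISAT2 4.8.2 in the submitters' processing notes) and estimated the level of each RefSeq transcript with Cufflinks 2.2.1. The authors deposited FPKM values, normalized for depth and transcript length, with lower and upper bounds, for 40201 transcripts without gene names or read counts, so depth is known only through these bounds. An exact 0 can be a failed estimate, and all transcripts of the 10 genes had the status OK in every sample.

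Names came from a RefSeq table of GRCm38.p6 (99.4% of transcripts matched), and coordinates are those of the files in mm9, counted from 1. FPKM values were summed per gene, kept for 12292 genes with a mean of at least 1 FPKM in NSCs or STO cells, and converted to log2(FPKM + 1). All 5 samples were fitted together in R 4.3.3 by the lmFit and trended eBayes functions of limma 3.58.1, and p-values were adjusted by Benjamini-Hochberg and called under 0.05. The script was tested on simulated data. Shares were compared by two-sided exact permutation tests (scipy 1.17.1). Across genes, replicates correlated with r of 0.994 to 0.996, and no transcript had the same value above 0 in 2 replicates of a cell type. The labels give no batch.

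The 10 genes and the lists were chosen with earlier results of these data known, and some genes of the lists are not reported here. Besides the 10 genes, named genes were Ccn1, Ccn2, the paralogs Lats1, Amot, Amotl1, Limd1 and Wtip, and from each list up to 4 called genes with the largest differences and separate groups, plus the gene with the smallest difference. Alternatives changed the pseudocount, filters, scaling, trend, replicate block, transcripts and samples.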

Additional observations from a re-analysis of the deposited data

How the results depend on the processing

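All 10 genes stayed higher in STO cells and below an adjusted p of 0.05 (limma) under each of the 14 refits of the data, the highest adjusted p being 0.0142, for Tead1 without NSC replicate 1. With a call that also asks for a difference of at least 1, 2103 genes were above and 2617 below NSCs in the STO samples, and 3 core kinases and adaptors were higher, 2 upstream regulators lower, 0 junction proteins lower, 0 VGLL genes lower and 3 other targets lower. Without a filter 2 VGLL genes were lower, and with the highest transcript alone 3 upstream regulators were lower. With the highest transcript alone the shares (STO minus NSC) were 5.71 percentage points for Tead1, -24.9 for Tead2, 15.8 for Tead3 and 3.39 for Tead4, and 18.1 for Yap1 in its pair. Leaving out 1 sample gave 4703 to 5066 genes higher and 4887 to 5252 lower, and -14.6 to 1.27 percentage points for NM_009534 in Yap1, the positive value being without NSC replicate 2. Genes near 0 changed sign: Lats1 was 0.016 with the replicate block and -0.086 to 0.056 without 1 sample. Nf2 was -0.0044 with upper quartile scaling and -0.034 to 0.052 without 1 sample, and was called at 1.21 with the highest transcript alone. The call of Amotl1 was lost in 6 refits. The cause of these changes was not tested. The shares of Lats2, Amotl2 and Ajuba in their families, added after the values were seen, differed by 31.8 to 33.3, 38.3 to 41.0 and 31.3 to 32.4 percentage points without 1 sample.

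A replicate block (the replicate number as a factor) gave 4994 genes higher and 5252 lower in STO samples, and the 10 genes kept their calls. Samples with the same number had correlations of their deviations of 0.0075 and 0.061, against -0.061 to 0.05 for different numbers. The deviations of the 2 NSC samples are mirror images, so each value recurs with the opposite sign. The same-number and different-number values are therefore not independent and do not settle whether the numbers pair the samples.

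Of the 10 genes, Tead4, Tead3 and Ajuba had the lowest NSC values above 0. Among the other pathway genes named, those under 1 FPKM there included Vgll3, Myof and Ccn2. No upper limit is given for the listed zeros of Ankrd1, Igfbp3 and Foxf2. Those of Ankrd1 had the status OK, but their deposited bounds were also 0. For Igfbp3 and Foxf2 the status is not given here, and a listed zero can be a failed estimate.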
